A study of Mus musculus with 6 samples.

Results

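The genes described are the subunits of the transcription factor AP-1 and 2 factors induced beside them, 9 genes in all: the JUN family members Jun, Junb and Jund, the FOS family members Fos, Fosb, Fosl1 and Fosl2, the zinc finger factor Egr1 and the small MAF protein Maff. They are 9 of the 55414 rows of the deposited table, each found by the Ensembl gene identifier that carries its symbol (for Jund, ENSMUSG00000071076). Jun lies on mouse chromosome 4, Junb and Jund on 8, Fos on 12, Fosb on 7, Fosl1 on 19, Fosl2 on 5, Egr1 on 18 and Maff on 15. The set was chosen by the fall of the Jund value in VC, so the differences between VC and control are a description for these 9 genes, and no test of them is offered as evidence. RNA sequencing was done on TM4 cells, a male mouse testis line that stands in for Sertoli cells, in 3 libraries labelled VC and 3 control libraries. The series title speaks of vitamin C, whereas the agent label of the VC samples and the study design say valine. No dose, exposure time or age was given, so the group is called VC. All libraries come from this 1 cell line, and nothing says that the replicates were separate cultures, so every p-value below measures only how these samples spread, and that spread may be technical.

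AP-1 is a dimer of proteins with a basic leucine zipper. JUN proteins pair with each other, with FOS proteins or with related ATF and MAF proteins, while FOS proteins need a JUN partner to bind DNA. Jun, Junb, Fos, Fosb, Fosl1, Egr1 and Maff are known as genes that growth factors and stress switch on through MAP kinases and the factor SRF, and Jund as the JUN gene that is transcribed more steadily and that is linked to slower proliferation and to protection from oxidative stress. Small MAF proteins lack an activation domain and act with CNC factors such as NRF2 at antioxidant genes. JUND is known in mice to be needed for normal spermatogenesis.

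The deposited values are on a transcripts-per-million scale multiplied by 1 factor per library, written "value" below. Being per length, they can be compared between genes, with a limit for Jund and Fosl1. Of their exon bases, 52.6% and 57.2% overlap a gene on the opposite strand, and how reads there were counted is not given. Among values of up to 1000 reads, 98.7% to 98.9% came out as whole multiples of 1 read, within 0.1 read. Higher values were not judged in this way, and the recovered reads sum to 20408997 to 22316434 per library. The 9 genes had between 74 reads, for Fos in VC replicate 2, and 6550 reads, for Fosl2 in VC replicate 3. Of 15 Sertoli markers, Wt1, Fshr, Dmrt1 and Shbg were listed at 0 in all 6 libraries, 6 passed the filter described below, and the summed values were 58.6 to 60.5 in VC and 51.9 to 55.9 in control. The 8 macrophage genes summed to 60.6 to 70.8 in VC and 55.5 to 65.3 in control, above the Sertoli sums in VC. Cd14 alone gave 55.8 to 67.0 of this in VC and 49.7 to 61.8 in control, and Adgre1 was at 0. The endothelial, germ cell and Leydig genes summed to at most 4.13 in VC and 3.54 in control for each type.

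Jund has a single exon, and the gene model at hand, GENCODE M21 on build GRCm38, places the antisense gene Gm11175 inside it on the opposite strand. The authors' build was GRCm39, so no gene coordinates are given. All 877 exon bases of Gm11175 lie on Jund, and they cover 85.5% of its 1026 coding bases. The 2 stretches below, read from the Jund transcript on chromosome 8, show where the overlap starts and the gap between the Gm11175 exons. Capitals mark bases that also belong to Gm11175.
Jund coding start, transcript bases 110 to 263: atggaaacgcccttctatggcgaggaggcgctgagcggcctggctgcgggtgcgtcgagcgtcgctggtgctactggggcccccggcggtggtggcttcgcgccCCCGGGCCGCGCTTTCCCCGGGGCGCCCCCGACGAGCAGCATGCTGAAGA
Jund gap, transcript bases 498 to 639: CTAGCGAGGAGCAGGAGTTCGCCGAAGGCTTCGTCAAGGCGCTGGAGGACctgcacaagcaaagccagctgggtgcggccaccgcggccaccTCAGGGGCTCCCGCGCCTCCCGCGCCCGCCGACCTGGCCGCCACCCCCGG
The first 104 coding bases and the 42 bases of the gap are free of Gm11175. Of the 791 Jund bases outside it, 109 are 5′ UTR, 149 are coding and 533, or 67.4%, are 3′ UTR.

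**Figure D1:**
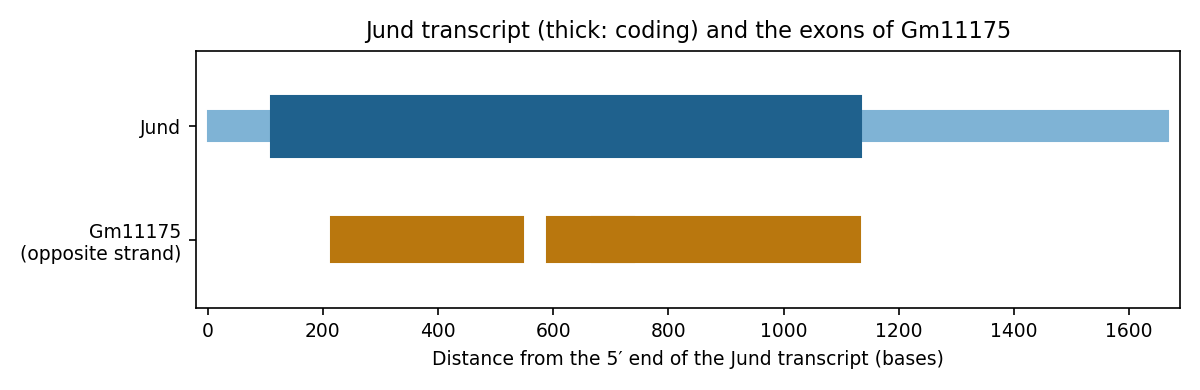
Map of the Jund transcript (thin bars UTR, thick bar coding) above the exons of Gm11175 on the opposite strand, against the distance in bases from the 5′ end of Jund. The Gm11175 exons cover most of the coding part, and the 3′ UTR is free of them.

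Promoters were searched in RefSeq windows of GRCm38.p6, cut to the 250 bases before each start, with 9 windows for 7 of the 9 genes. No window was used for Fosl1 and Egr1. Each motif was searched on both strands. AP-1 and ATF dimers bind TGACTCA, the AP-1 site, and TGACGTCA, the CRE. TGACATCA is the variant through which JUN is known to act on its own promoter. The short CRE core was searched as TGACG, the CCAAT box by its letters, the TATA box as TATAAA and the GC box as GGGCGG. The EGR site had the letters GCGTGGGCG in 1 form. Its other form was GCGGGGGCG. The CArG box, which SRF binds, was searched by its pattern. TGACG is contained in TGACGTCA, and GGGCGG overlaps the EGR site. The windows of Jun, Junb and Fos are printed because these 3 genes had overlapping values in VC and control, beside Jund. Capitals mark every match.
Jun, chr4:95052223-95052472, minus strand: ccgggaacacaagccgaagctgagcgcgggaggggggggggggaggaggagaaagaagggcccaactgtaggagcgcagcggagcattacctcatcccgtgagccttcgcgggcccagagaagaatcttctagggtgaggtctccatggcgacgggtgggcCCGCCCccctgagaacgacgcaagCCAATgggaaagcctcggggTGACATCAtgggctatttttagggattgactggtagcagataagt
Junb, chr8:84978749-84978998, minus strand: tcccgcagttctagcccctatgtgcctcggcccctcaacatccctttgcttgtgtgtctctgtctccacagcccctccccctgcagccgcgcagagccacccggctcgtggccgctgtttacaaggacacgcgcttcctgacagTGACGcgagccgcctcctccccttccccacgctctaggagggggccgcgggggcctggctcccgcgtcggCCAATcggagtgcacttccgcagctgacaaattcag
Fos, chr12:85473640-85473889, plus strand: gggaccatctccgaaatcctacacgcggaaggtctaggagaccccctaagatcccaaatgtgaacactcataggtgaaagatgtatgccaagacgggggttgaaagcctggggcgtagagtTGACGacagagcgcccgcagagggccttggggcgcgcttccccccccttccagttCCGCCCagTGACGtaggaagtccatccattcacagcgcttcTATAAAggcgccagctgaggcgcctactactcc
TGACATCA stood 45 to 38 bases before the start of Jun and occurred in 2.93% of the 32851 promoter windows searched. Fos held the short CRE core at 2 places and the TATA box, and Junb held the short CRE core and the CCAAT box. Of all windows, 17.8% held the short CRE core, 12.4% the TATA box, 33.8% the CCAAT box and 32.7% the GC box. No window of the 9 matched the AP-1 site or the CArG box, found in 4.46% and 1.47% of all windows. Bases further upstream than 250 were not searched, so a lack of matches does not show that a gene lacks the site. The window of Jund matched none of the motifs. It lies before a RefSeq start upstream of the GENCODE start, so it is not printed.

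Short sites with 10 bases on each side are shown for the members that hold an EGR site, a CRE or TGACATCA. The capitals are the site.
Fosb, EGR site: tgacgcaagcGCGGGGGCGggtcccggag
Fosl2, EGR site: ccggctgcgcGCGGGGGCGgaagggcgcg
Maff, EGR site of the second start: cctcactcggGCGTGGGCGgggtctcggc
Maff, CRE of the second start: gctggggcggTGACGTCActgcatgact
Maff, TGACATCA of the third start: tggagccatgTGACATCAgtgtttgttc
The EGR site was present in 3.06% and TGACGTCA in 1.55% of all windows. These matches are letters in a window and do not show that a factor binds there.

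By level, Egr1 came first with a value of 105.3 ± 4.64 over the 6 libraries (mean ± SD, n = 6), above Junb in every library with no overlap of the ranges. Junb at 91.6 ± 5.33, Jund at 87.4 ± 25.8 and Fosl2 at 78.3 ± 4.403 followed, and Fosl2 was above Jun (72.7 ± 2.10) in 5 of 6 libraries. Jund changed its place with the group: it ranked 5 of 9 in VC and 1 of 9 in control, where its mean of 109.493 was level with the 109.445 of Egr1, and Jund was the lower of the pair in control replicate 2. Fosl1 (52.0 ± 2.53) and Maff (46.8 ± 4.41) formed the next pair, with overlapping ranges, and both were below Jun and above Fosb in all 6 libraries. Fosb at 5.51 ± 0.586 and Fos at 4.70 ± 0.569 were lowest, again with overlapping ranges. By deposited value, the most abundant FOS family transcript was thus Fosl2. It made up 56.8 ± 0.731% of summed FOS family values in VC and 54.7 ± 0.799% in control. Fos itself made up 3.15 ± 0.338% in VC and 3.56 ± 0.467% in control (SD, n = 3 each). These are shares of RNA, and protein levels were not examined. The levels and ranks of Fosl1 and Jund depend on how reads in their overlaps were counted, which is not given.

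**Figure D2:**
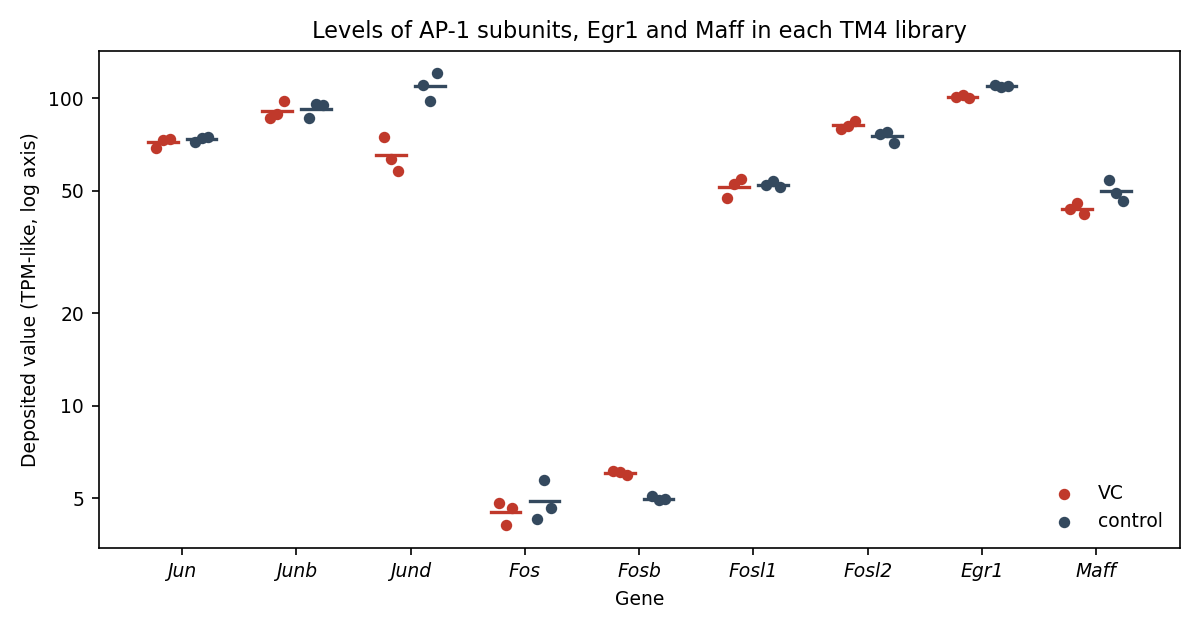
Deposited value (TPM-like, log axis) of each gene in each library, with VC left of control; points are libraries and lines are group means. Jund lies at 57.8 to 75.003 in VC, below its 97.6 to 120.4 in control, while the points of Jun, Junb and Fosl1 overlap.

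Among the JUN genes, Jund was lower in VC, and the ranges of Jun and Junb overlapped. The value of Jund was 75.003, 63.2 and 57.8 in VC replicates 1 to 3, against 111, 97.6 and 120.4 in control replicates 1 to 3. All 3 VC libraries were below all 3 control libraries, and the mean was 65.3 ± 8.79 in VC and 109.5 ± 11.4 in control (SD, n = 3 each), a difference of -40.3%. On the log2(value + 1) scale this was -0.74 (SE 0.11). Of 8331 tested genes with a mean value of 10 or more, 13 reached or passed it, Jund included. Among all 13972 tested genes, 112 did. Tested genes are the 13972 whose value reached 1 in 3 libraries or more, and all 9 genes were among them. In bulk RNA, fewer cells of a type and less RNA per cell cannot be told apart. Jund was the 1 of the 9 that limma, with an intensity trend and Benjamini-Hochberg adjustment over all tested genes, placed under an adjusted p of 0.05, where 0.687% of tested genes were called, 0.429% higher and 0.258% lower. Since Jund was chosen for this difference, nothing is read from that count. The call of Jund was lost in 10 of 16 alternative fits, among them each of the 6 that left out 1 library.

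Jun, the founding subunit and a driver of proliferation, had values of 68.8, 73.3 and 73.8 in VC and 71.9, 74.0 and 74.5 in control. Junb, which often counteracts JUN, had 86.0, 88.8 and 98.2 in VC and 86.0, 95.6 and 94.96 in control. The ranges of both genes overlapped between the groups. Their log2 differences were -0.03 (SE 0.040) for Jun and -0.02 (SE 0.064) for Junb, and both became positive, at 0.042 and 0.052, when libraries were scaled to equal totals. That scaling put all tested genes at a median of 0.08 instead of 0.01. Junb was also positive, at 0.019, with quantile normalization. Jun and Junb together had a summed value of 163 ± 8.64 in VC and 165.6 ± 6.72 in control. With Jund the JUN family summed to 228.3 ± 2.599 in VC and 275.1 ± 12.7 in control. Jund thereby made up 28.6 ± 3.77% of the family in VC and 39.7 ± 2.80% in control. The lowest control share was 36.5% and the highest VC share 32.6%. These shares depend on how reads in the overlap of Jund with its opposite-strand gene were counted.

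**Figure D3:**
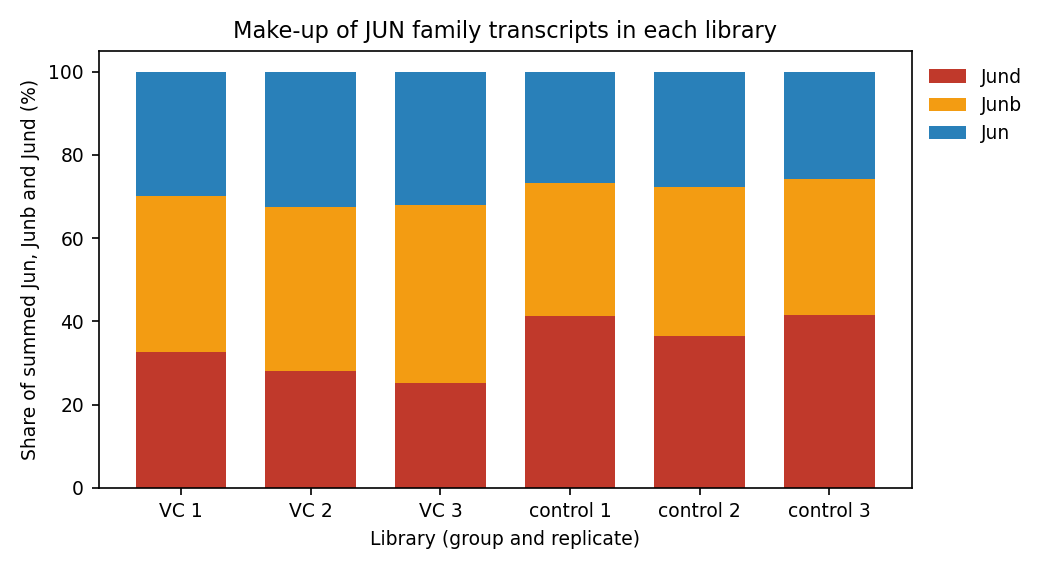
Share of each JUN gene in the summed values of Jun, Junb and Jund (%), 1 bar per library, VC left of control. The Jund part is 25.2% to 32.6% in VC and 36.5% to 41.5% in control.

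How reads in the overlap with Gm11175 entered the Jund value is not given. Of a range of lengths tried for Jund, 1667 bases came closest to whole reads in the 6 libraries, within 0.074 read. The GENCODE M21 length of 1668 left up to 0.464 read. At 1667 bases Jund had 1026, 812 and 776 reads in VC and 1427, 1293 and 1666 reads in control. Gm11175 was listed at 0 in all 6 libraries. The same held for most genes in this position: of 375 genes whose exon bases all lie under exons of the opposite strand, 370 or 98.7% were at 0, and so were all 68 of them whose opposite-strand partners averaged 1000 reads or more. Of 634 genes inside exons of the same strand, 559 or 88.2% were at 0, as were 177 of the 196 whose same-strand partners averaged 1000 reads or more. Of all 55414 rows, 27930 were at 0 in every library. Whether the libraries kept strand is not given either. Without strand, reads of both genes in the overlap cannot be told apart.

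The 44 tested genes with a mean value of 10 or more and at least 50% of exon bases in such an overlap had a median log2 difference of -0.05, against -0.00077 over the 8331 tested genes of that level, and 28 were below 0. Without the limit on level the class held 124 genes, with a median of 0.001 and 62 below 0, and in both Jund alone was called and alone reached -0.74. Fosl1 belongs to this class too, with 57.2% of its exon bases under Ccdc85b. The Jund transcript is 67.1% G and C, more than 99.8% of tested genes, and of the 19 genes with a mean value of 10 or more and at least 65% G and C, 16 were below 0 with a median of -0.16. Jund and Scand1, which stood at -1.55 and is named because of that value, were the 2 of them called. Both limits, on overlap and on G and C, were set with these values known. With the trend on GC content removed from each library the difference of Jund was -0.69. Mitochondrially encoded transcripts, which can follow RNA quality, had lower sums in VC as well, with 91588 to 97718 in VC and 101319 to 103409 in control. Of these 15 transcripts, 9 lay below control without overlap, against 11.6% of all tested genes. With limma none of the 15 was called, and 5 had an unadjusted p under 0.05, as had 2410 of the 13972 tested genes. The part of base composition, overlap and these transcripts in the Jund difference was not tested.

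The 5 genes with the library pattern most like that of Jund were taken by Pearson's r of log2(value + 1) over the 6 libraries, among 8292 tested genes with a mean value of 10 or more and a symbol, leaving out the 9 genes and those that overlap them. They were Gm10698 (r = 0.997), Abhd17a, a depalmitoylating enzyme (0.995), Cct5, a subunit of the cytosolic chaperonin (0.995), Rsu1, a RAS suppressor at focal adhesions (0.993), and the mitochondrially encoded mt-Nd1 (0.993). Like Jund, each was lower in all 3 VC libraries than in any control library, which the choice by likeness to Jund largely fixes. Their differences were smaller than that of Jund: Abhd17a was at 72.0 ± 4.44 in VC and 88.7 ± 4.73 in control, and Cct5 at 589.8 ± 11.1 in VC and 644.6 ± 16.4 in control. The 6 points share the 2 groups and the library scaling, so these r values are a description.

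Of the FOS genes, Fosb and Fosl2 were higher in VC without overlap, and the ranges of Fos and Fosl1 overlapped. Fosb had values of 6.11, 6.07 and 5.95 in VC and 5.07, 4.92 and 4.96 in control. All VC values were above all control values, by 21.3% in the means and by 0.24 (SE 0.069) in log2(value + 1). The added 1 shrinks the difference of a gene this low: it was 0.27 with a pseudocount of 0.1 and 0.15 with one of 5. The reads behind it were 292 to 313 in VC and 244 to 257 in control. Fosl2, also called FRA2, had 79.3, 81.4 and 84.0 in VC and 76.5, 77.4 and 71.3 in control. The VC values were again above all control values, by 8.70% in the means and by 0.12 (SE 0.044), or 0.191 with equal totals.

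Fos, the classical immediate early gene, had values of 4.82, 4.08 and 4.65 in VC and 4.28, 5.72 and 4.66 in control. Its ranges overlapped, as did those of Fosl1 (FRA1), a FOS gene tied to invasive growth, at 47.4, 52.7 and 54.6 in VC and 52.0, 53.6 and 51.4 in control. The log2 differences were -0.09 (SE 0.12) for Fos and -0.02 (SE 0.058) for Fosl1, and Fosl1 was at 0.047 with equal totals. Ccdc85b, the gene on the other strand of Fosl1, was at 18.4 ± 0.403 in VC and 21.6 ± 2.03 in control, below control in all 3 VC libraries and not called (limma adjusted p = 0.189). For Jun the overlapping antisense gene Junos was at 1.19 ± 0.0792 in VC and 1.07 ± 0.302 in control, and for Junb the overlapping peroxiredoxin gene Prdx2 was at 145.2 ± 3.83 in VC and 151.9 ± 11.7 in control (SD, n = 3 each).

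Egr1, which binds GC-rich promoters and switches on its own repressors NAB1 and NAB2, had values of 101, 102.1 and 100.4 in VC and 110.1, 108.6 and 109.6 in control. The groups did not overlap and the libraries within each lay close together, so that the difference of -7.64% in the means, or -0.11 (SE 0.029) on the log2 scale, was larger than the SD of either group. With equal totals it was -0.042. Maff, the small MAF gene known to respond to stress and cytokines, had 43.7, 45.5 and 41.9 in VC and 54.3, 49.2 and 46.2 in control, without overlap, and differed by -12.4% in the means and by -0.19 (SE 0.065), or -0.114 with equal totals. In all, 3 of the 9 genes lay below and 2 above control in every VC library, where 11.6% and 13.9% of all tested genes did, and 4 overlapped. The median log2 difference of the 9 was -0.03.

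**Figure D4:**
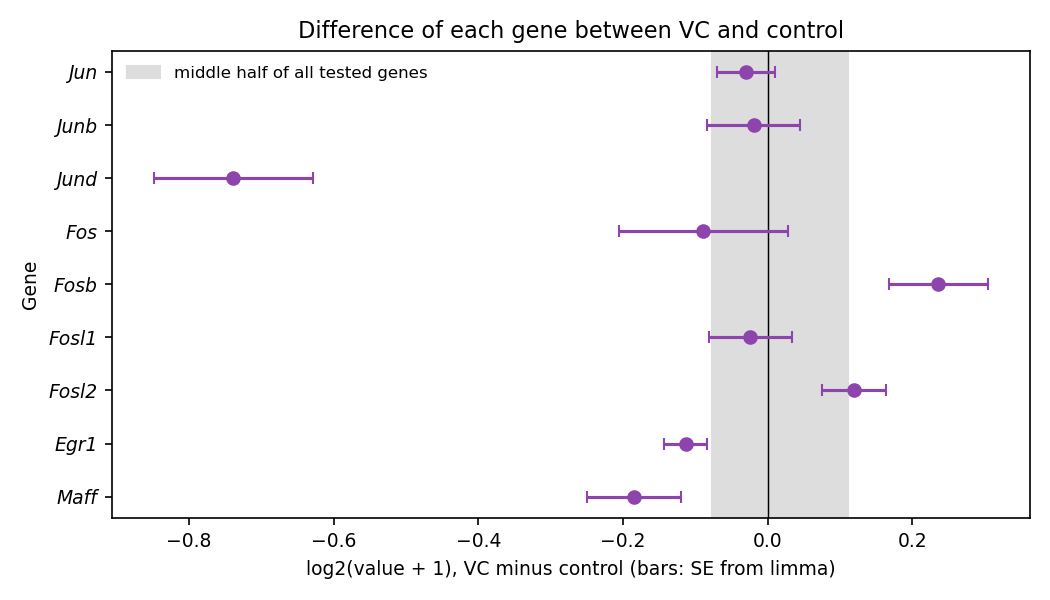
Difference of each gene between VC and control in log2(value + 1), with the SE from limma, and the middle part of all tested genes in grey, from the 25th to the 75th percentile. Jund stands at -0.74, Fosb at 0.24, and the other 7 genes lie between -0.19 and 0.12.

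Of 8 tested genes of the SRF list, through which serum and MAP kinases reach Fos and Egr1, Srf fell and 7 did not pass, where limma called 0.687% of all tested genes. Over this list and the cascade, feedback, cofactor, bZIP and EGR lists given next, Srf was the 1 gene called, so nothing particular to them is read from the count. Srf had values of 69.9, 74.9 and 71.4 in VC and 96.6, 91.7 and 87.6 in control, without overlap, a log2 difference of -0.35 (SE 0.048, limma adjusted p = 0.0368). Its partner Elk1, a ternary complex factor, was at 14.5 ± 0.515 in VC and 12.02 ± 0.603 in control (adjusted p = 0.107 by limma), Elk3 at 94.5 ± 3.04 in VC and 91.0 ± 2.26 in control, and Elk4 at 16.8 ± 0.367 in VC and 16.2 ± 1.77 in control. The coactivators Mrtfa and Mrtfb were at 30.8 ± 1.92 and 11.2 ± 0.490 in VC, against 28.1 ± 0.724 and 9.61 ± 1.34 in control. Mef2a and Mef2d were at 18.6 ± 0.330 and 35.5 ± 2.57 in VC, against 17.7 ± 1.03 and 32.4 ± 2.38 in control, and Mef2c, with values of 0.712 to 0.917, was below the filter. The list's median log2 difference was 0.10. The call of Srf was lost in 10 of 16 alternative fits, among them equal totals, quantile normalization, the GC correction and each fit that left out 1 library other than control replicate 3 (adjusted p up to 0.186 by limma).

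The MAP kinase cascade, which phosphorylates JUN, FOS and ELK proteins, had 0 of 32 tested genes called by limma in either direction, 6 of them at an unadjusted p under 0.05, and a median of -0.01. Its phosphatases and feedback inhibitors, many of them targets of the pathway, had 0 of 18 called by limma, 8 at an unadjusted p under 0.05 and 1 called by limma-voom on recovered reads, and a median of 0.10. For comparison, limma gave 2410 of 13972 tested genes an unadjusted p under 0.05, and limma-voom called 548 of 13772. The 20 tested cofactors and ligases of JUN and FOS also had none called by limma or limma-voom and 0 at an unadjusted p under 0.05, with a median of 0.004. They included Men1, whose product menin binds JUND and represses it, at 59.4 ± 2.69 in VC and 55.9 ± 1.56 in control (limma adjusted p = 0.384), and the JUN coactivator Cops5 at 65.2 ± 3.04 in VC and 65.5 ± 2.31 in control (limma adjusted p = 0.959). Both are named for their known roles, with their values known. Of 17 tested bZIP partners none was called by limma or limma-voom, 3 had an unadjusted p under 0.05, and the median was 0.07, with 14 above 0.

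The other EGR factors and the NAB corepressors gave no call by limma or limma-voom in 4 tested genes, and 0 had an unadjusted p under 0.05. Egr2 was at 2.04 ± 0.153 in VC and 1.64 ± 0.214 in control, Egr3 at 5.81 ± 0.387 in VC and 4.98 ± 0.791 in control, Nab1 at 64.9 ± 2.31 in VC and 65.3 ± 3.59 in control, and Nab2 at 76.9 ± 2.35 in VC and 73.2 ± 0.538 in control. Egr4 was listed at 0 in all 6 libraries. With limma, 2410 of the 13972 tested genes had an unadjusted p under 0.05, and 96 an adjusted one.

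Of 39 other immediate early genes tested, 2 fell and none rose, and 16 had an unadjusted p under 0.05. Over all tested genes limma called 0.687%, and 2410 of 13972 had an unadjusted p under 0.05. In every VC library 12 of the 39 lay below control and 8 above, against 11.6% and 13.9% of all tested genes. The list's median was -0.04, against 0.01 over all genes; scaling to equal totals put the list at 0.034 and all genes at 0.08. The genes that fell were Srf, given above, and Ccn2, a matricellular growth factor, with 303, 314 and 318 in VC and 371, 384 and 387 in control, a log2 difference of -0.29 (SE 0.035, limma adjusted p = 0.0293). The call of Ccn2 was lost when any 1 library other than control replicate 3 was left out, with no filter and with the replicate block.

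Among 27 tested genes often named as AP-1 targets, limma called 1 lower and 0 higher, and 26 did not pass. Of the 27, 6 had an unadjusted p under 0.05, and 4 lay below and 4 above control in every VC library. Of all tested genes, limma called 0.687%, and 2410 of 13972 had an unadjusted p under 0.05. In every VC library 11.6% of them lay below and 13.9% above control. Of 15 tested genes often named as EGR1 targets none was called by limma, and 9 had an unadjusted p under 0.05. Limma-voom called 2 of the EGR1 targets, and 548 of 13772 genes in all. The medians were -0.004 for AP-1 targets and 0.04 for EGR1 targets.

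**Figure D5:**
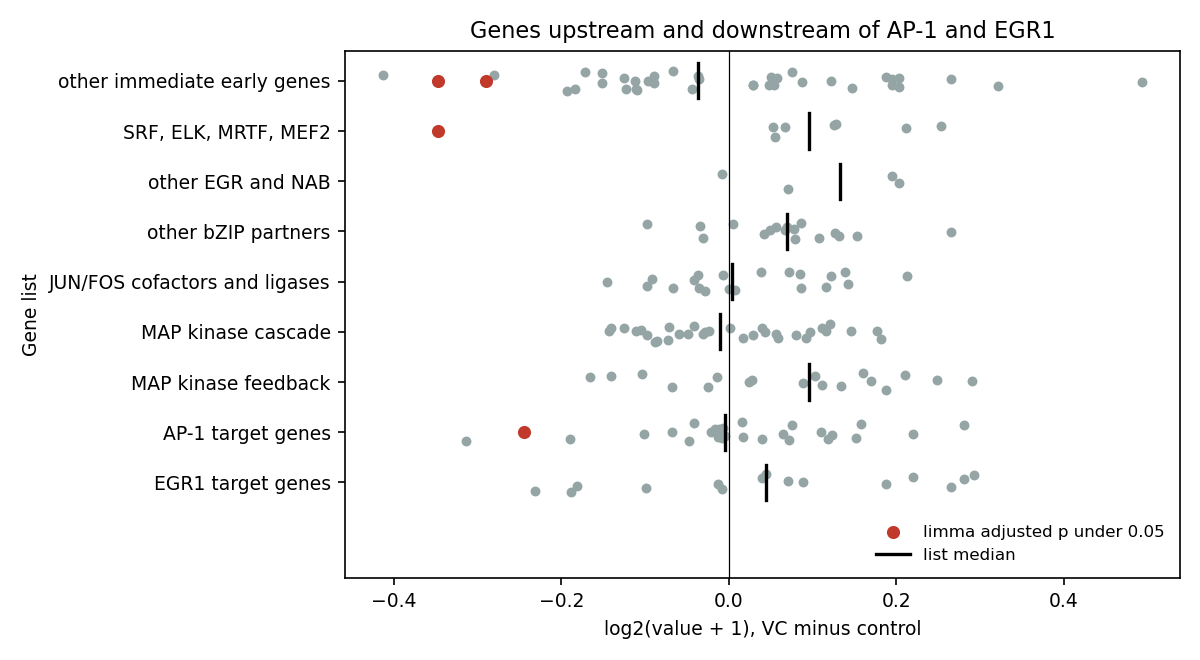
Difference of each tested gene of 9 lists between VC and control in log2(value + 1), with called genes in red and list medians as black bars. Srf, which stands in 2 lists, and Ccn2 are among the called genes, and no called gene lies above 0.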

How the data were processed

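RNA from TM4 cells was extracted with Trizol and made into TruSeq libraries, per the labels' protocols. HISAT2 and GRCm39 are named in the submitters' processing notes. The sources used here do not give the counting tool, annotation or strand setting. The authors deposited a non-negative signal per gene, with column totals of 966031 to 1058206, and the table's name points to TMM scaling. Columns were matched to samples by group letter and number. Symbols matched 52081 and exon lengths (GENCODE M21) 52133 of 55414 rows.

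The log2(value + 1) of genes that reached 1 in 3 or more libraries was compared with limma 3.58.1 under R 4.3.3, using empirical Bayes, an intensity trend, no covariate and no replicate block, two-sided, adjusted by Benjamini-Hochberg. The fit was tested on simulated data, where most changed genes were recovered and the share of false calls was above the threshold set. Reads were recovered as value times exon length divided by the worth of 1 read in each library, and served for depth and a limma-voom alternative. No set test was run. The called gene of the AP-1 target list is not reported here. The 9 genes and all lists were chosen with earlier results of these data known. The rule for named genes took the 9 genes, genes that overlap them, list members called, all EGR, NAB and SRF list members and the 5 genes most like Jund. Alternatives changed the pseudocount, filter, scaling, replicate block, libraries, prior and GC correction, the last added after the data were seen. Tables were made with Python 3.11.15 and pandas 2.3.3, figures with matplotlib 3.10.9.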

Additional observations from a re-analysis of the deposited data

How the results depend on the processing

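The direction held for Jund, Fosb, Fosl2, Egr1 and Maff in all 16 alternatives run. The difference of Jund was -0.667 with equal totals, -0.747 in limma-voom and -0.841 to -0.656 without 1 library; the gene was called in 6 of the 16, not with no filter, quantile normalization, robust empirical Bayes, the replicate block or when any 1 library was left out (cause not tested). Fosb was 0.274 with a pseudocount of 0.1, 0.146 with 5, 0.297 with equal totals, 0.206 with quantile normalization and 0.279 in limma-voom. Equal totals gave 0.042 for Jun, 0.191 for Fosl2 and -0.042 for Egr1, which was -0.075 with quantile normalization and -0.126 with the GC trend removed. Without 1 library Jun ran from -0.048 to 0.002, Junb from -0.075 to 0.02, Fos from -0.164 to 0.01 and Fosl1 from -0.066 to 0.035.

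The 96 called genes became 30 with no filter, 183 with a mean of 5 or more, 217 with equal totals (182 higher, 35 lower, against 60 and 36), 548 in limma-voom and 0 with the replicate block, where 2039 had an unadjusted p under 0.05. The replicate numbers pair no samples by label, and same-numbered libraries did not deviate together (correlations of -0.0186, -0.0115 and 0.00506). Leaving out 1 library gave 0 to 82, and 82 only without control replicate 3. Called immediate early genes were 0 with no filter, 0 with the replicate block, 4 in limma-voom and 0 to 3 without 1 library. Called SRF list genes were 0 with no filter, equal totals, quantile normalization, replicate block or GC correction, 2 in limma-voom and 0 to 1 without 1 library. Called AP-1 targets were 2 with a mean of 5 or more, 0 with quantile normalization, 0 with the replicate block, 3 in limma-voom, 2 with the GC correction and 0 to 1 without 1 library. Called EGR1 targets were 1 with a mean of 5 or more, with equal totals and with the GC correction, and 2 in limma-voom, which also called 1 feedback gene. The causes of these changes were not tested. The order of the 9 genes by level kept 6 places within VC and 6 within control. Low reads limit Fos (74 to 107 reads), which a mean of 5 or more left out.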
